A study of Mus musculus with 10 samples.

Results

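The cell cycle and DNA replication genes followed here are 45 genes sorted by the stage at which their products act: 19 of the G1/S transition and DNA replication, 17 of G2 and mitosis, 5 D cyclins and their partner kinases, 3 inhibitors of cyclin-dependent kinases (CDK inhibitors) and Mycn. The members were taken by gene symbol, with the brightest probe set standing for a gene that has several. Of the 45, 41 were measured under a name among the 22206 probe sets of the array, each by 1 probe set: 18 of the G1/S and replication list, 15 of the G2/M list, 4 of the D cyclin list, all 3 CDK inhibitors and Mycn. Ccnd1, Mcm7, Ccnb1 and Foxm1 were not analysed here. No filter on low values was applied, so all 41 entered every comparison, and their mean signals stood no lower than the 49.7th percentile of all probe sets.

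The samples were whole mouse Wolffian ducts, the embryonic tubes that form the epididymis and vas deferens, taken from embryos at 16.5 days after mating and kept for 72 h at an air-liquid interface. Ducts were cultured with cyclopamine at 25 µM, which blocks the hedgehog transducer Smoothened (3 arrays), with SAG at 0.5 µM, a Smoothened agonist (4 arrays), or in culture medium alone, called vehicle in the sample names (3 arrays). The sample names call the tissue pronephros and the protocols Wolffian duct. The labels state neither strain, sex nor pooling of ducts, and they do not say if solvent was added to the vehicle cultures. The design text calls the replicates biological without saying whether they came from separate litters.

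Cells enter the cycle when D cyclins with Cdk4 or Cdk6, and then cyclin E with Cdk2, phosphorylate the retinoblastoma proteins and release E2F factors, which switch on the genes for replication. The Mcm proteins form the helicase that is loaded at origins by Cdc6 and Cdt1 and opens the DNA for copying. Genes of G2 and mitosis are switched on later by the MuvB complex with B-Myb (Mybl2) and Foxm1, often through promoter elements named CHR and CCAAT. CDK inhibitors hold the kinases back. In other tissues, such as the developing cerebellum of the mouse, hedgehog signalling is known to raise D cyclins and Mycn and to drive progenitors to divide.

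The deposited values are log2 signals, so a difference of 1 is a doubling of signal. Array medians lay between 7.55 and 7.70. The hedgehog targets answered the compounds: Gli1, the pathway's transcription factor and target, averaged 4.98 ± 0.40 with cyclopamine (SD, n = 3) and 11.91 ± 0.63 in vehicle (SD, n = 3), a log2 difference of -6.93 ± 0.29 (limma SE, adjusted p = 1.57e-06), and it was 1.51 ± 0.27 above vehicle with SAG (limma adjusted p = 0.0374). Cyclopamine replicate 2 stood apart on the second principal component (-51.7, against -20.9 to 38.3 for the other arrays), so the counts of members and of the further cell cycle genes that passed are also given without it. Defining markers of duct epithelium, such as Cdh1 and Pax2, were measured, without a detection call. The lowest signal of the 11 measured on any array was 7.45, where the median of all probe set means was 7.62.

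With cyclopamine, 9 of the 41 measured genes fell and 0 rose. The 9 were the transcription factors E2f1, E2f2, E2f8 and Mybl2, the helicase subunits Mcm5 and Mcm6, cyclin A (Ccna2), the mitotic kinase Aurkb and the CDK inhibitor Cdkn2c. They amount to 22.0% of the members, where 2.95% of all probe sets fell and 2.17% rose (limma, Benjamini-Hochberg adjusted over all probe sets, threshold 0.05). The log2 difference was negative for 40 of the 41, with a median of -0.47 over the members and 0.02 over all probe sets. In 29 members every cyclopamine array lay below every vehicle array, as did 11.9% of all probe sets. In whole explants, fewer dividing cells and less RNA per cell cannot be told apart. Marker levels of other cell types moved in the same cultures, the smooth muscle list by -3.25 to -2.50 and the duct epithelium list by 1.05 to 1.82 relative to vehicle (log2, each cyclopamine array), and their part in the result was not tested. The count of 9 fell to 5 when vehicle replicate 2, vehicle replicate 3 or cyclopamine replicate 3 was left out. It was 8 without cyclopamine replicate 2, where E2f2 and Mcm6 lost the call and Kif20a gained it.

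**Figure D1:**
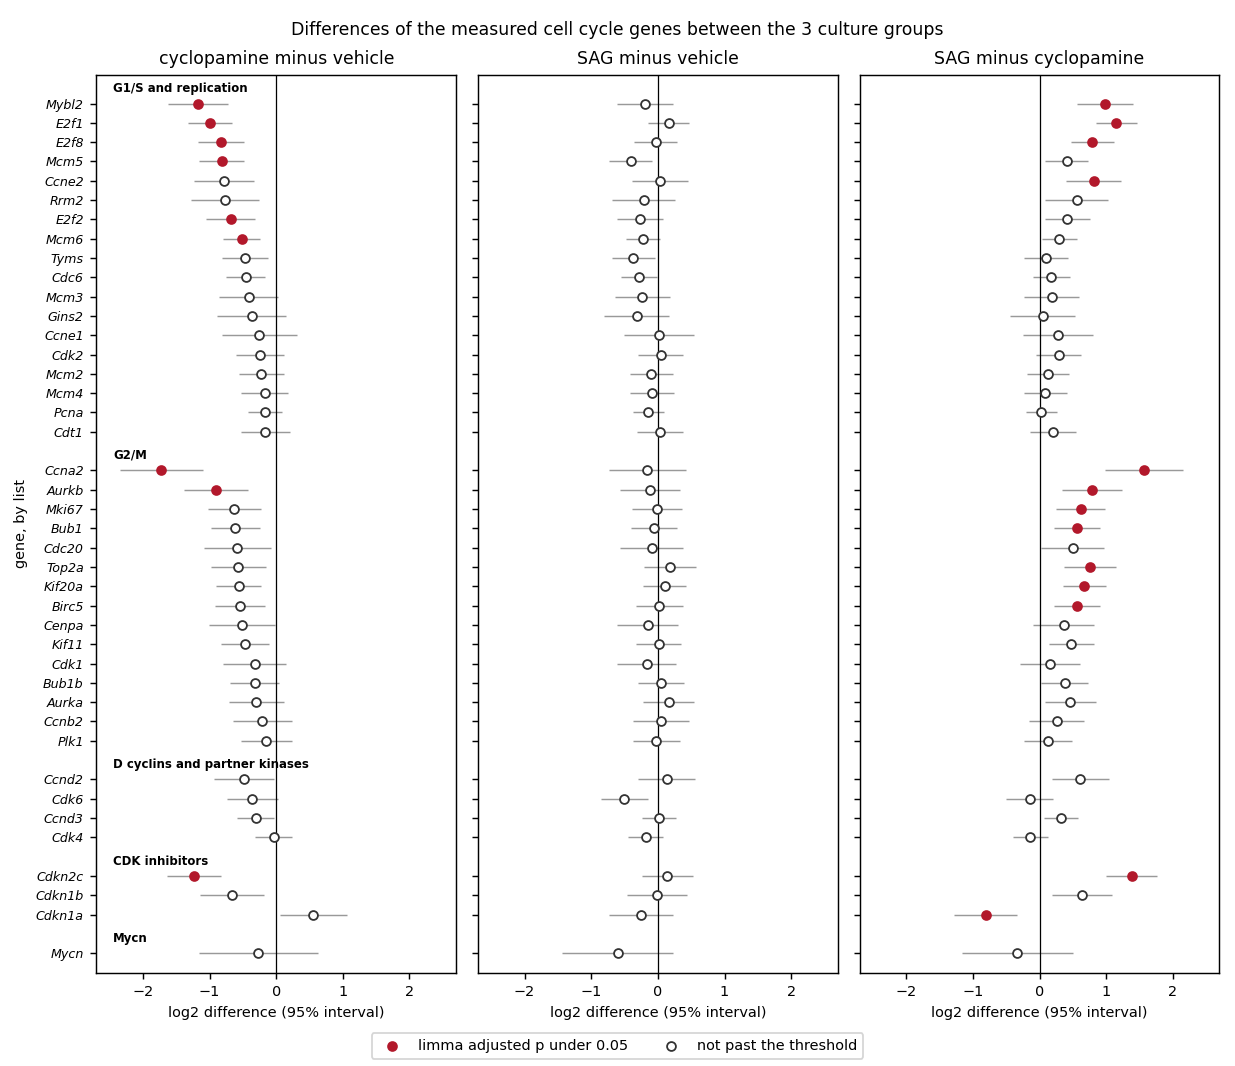
Log2 difference of each measured gene (horizontal axis) in cyclopamine minus vehicle, SAG minus vehicle and SAG minus cyclopamine, with 95% intervals from the limma fit; genes are grouped by list and filled points are past an adjusted p of 0.05. In the left panel 40 of 41 points lie left of 0, in the middle panel 0 points are filled, and in the right panel 12 filled points lie right of 0 and 1, Cdkn1a, lies left.

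The G1/S and replication list held 6 of the 9 genes that fell, of 18 measured. All 18 differences with cyclopamine were negative, the list median was -0.46, and 14 members did not overlap with vehicle. Of all probe sets, 2.95% fell and 11.9% lay below vehicle on every cyclopamine array. Averaged over the list, the cyclopamine arrays stood at -0.48, -0.47 and -0.64 relative to the vehicle mean, and the vehicle arrays at -0.04, 0.05 and -0.01.

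Among the transcription factors, Mybl2, the B-Myb factor that opens the mitotic programme, had signals of 9.13, 8.81 and 8.33 with cyclopamine and 9.83, 9.94 and 10.01 in vehicle, a difference of -1.17 ± 0.20 (limma adjusted p = 0.00927). Every cyclopamine value lay below the vehicle range, which spans less than 0.2. E2f1, the activator that retinoblastoma protein holds in check, read 8.63, 8.98 and 8.52 with cyclopamine and 9.64, 9.84 and 9.63 in vehicle, a 1.99-fold lower signal (log2 difference -0.99 ± 0.15, limma adjusted p = 0.00515). The groups were separate for E2f8 too, an atypical E2F that represses E2F targets late in S phase, at 11.89, 11.91 and 11.70 with cyclopamine and 12.58, 12.83 and 12.56 in vehicle (-0.82 ± 0.16, limma adjusted p = 0.0148). E2f2, another activator, was the dimmest of these factors at 7.33, 7.06 and 7.26 with cyclopamine and 8.16, 7.72 and 7.82 in vehicle (-0.69 ± 0.17, limma adjusted p = 0.0403). Mybl2 and E2f1 stayed past the threshold whichever array was left out. E2f8 did not without vehicle replicate 2 (limma adjusted p = 0.0613) or cyclopamine replicate 3 (0.0526). E2f2 stayed past it only without SAG replicate 1, and the 9 other omissions gave adjusted p of 0.0528 to 0.139.

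Of the replication machinery, Mcm5 and Mcm6 passed the test. Mcm5 had 11.19, 11.10 and 10.83 with cyclopamine and 11.75, 11.81 and 12.01 in vehicle, a 1.76-fold lower signal (log2 difference -0.82 ± 0.15, limma adjusted p = 0.0138, or 0.0546 without vehicle replicate 3). Mcm6 had 13.49, 13.37 and 13.49 with cyclopamine and 13.89, 13.94 and 14.07 in vehicle (-0.52 ± 0.13, limma adjusted p = 0.0399). The Mcm6 groups did not overlap, but the call held only without SAG replicate 1 and was lost in the 9 other omissions (0.0508 to 0.127). The other subunits of the same ring did not pass: Mcm3 at -0.42 ± 0.20, Mcm2 at -0.22 ± 0.15 and Mcm4 at -0.17 ± 0.16, with adjusted p of 0.292, 0.484 and 0.608. The loading factors Cdc6 (-0.46 ± 0.13, adjusted p = 0.0788) and Cdt1 (-0.17 ± 0.17, adjusted p = 0.651) did not pass either, nor did Gins2 of the active helicase (-0.37 ± 0.23, adjusted p = 0.442). Of the nucleotide suppliers, the ribonucleotide reductase subunit Rrm2 differed by -0.77 ± 0.23 (adjusted p = 0.0858) and thymidylate synthase, Tyms, by -0.47 ± 0.16 (adjusted p = 0.130). Pcna, the sliding clamp and a common proliferation marker, had 15.77, 15.80 and 15.78 with cyclopamine and 15.99, 15.98 and 15.89 in vehicle. The Pcna groups were separate but by little, and the difference of -0.17 ± 0.11 did not pass (limma adjusted p = 0.468).

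The cyclin E branch did not pass the test. Ccne2, a cyclin E gene, came nearest with -0.78 ± 0.20 (limma adjusted p = 0.0512), and its relative Ccne1 differed by -0.25 ± 0.25 (adjusted p = 0.650). Their kinase partner Cdk2 differed by -0.25 ± 0.16 (adjusted p = 0.459). Ccne2 lay close to the threshold and did pass in some alternatives. These included quantile normalization, median centring, a filter on dim probe sets and a prior variance that follows intensity (limma adjusted p = 0.0431 to 0.0493).

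The G2/M list held 2 of the 9 that fell, Ccna2 and Aurkb, of 15 measured. All 15 differences with cyclopamine were negative, the list median was -0.54, and 10 members did not overlap with vehicle. The shares of all probe sets were again 2.95% for those that fell and 11.9% for those wholly below vehicle. Averaged over the list, the cyclopamine arrays stood at -0.40, -0.48 and -0.80 relative to the vehicle mean, and the vehicle arrays at -0.08, 0.12 and -0.04. Cyclopamine replicate 3 was the lowest cyclopamine array for 13 of the 15 genes.

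Ccna2, the cyclin of S phase and G2, showed the widest difference of any member. It read 12.83, 11.91 and 12.40 with cyclopamine and 14.41, 13.76 and 14.14 in vehicle, a 3.31-fold lower signal (log2 difference -1.73 ± 0.28, limma adjusted p = 0.00689), past the threshold in each of the 10 fits that left out an array. Aurkb, the kinase of the chromosomal passenger complex, read 12.03, 12.15 and 11.58 with cyclopamine and 12.83, 13.04 and 12.61 in vehicle (-0.90 ± 0.22, limma adjusted p = 0.0416). Its groups were separate, but the call was lost in 8 of 10 omissions (0.0512 to 0.142) and held without SAG replicate 1 or cyclopamine replicate 2. Birc5, Aurkb's partner in that complex, differed by -0.54 ± 0.17 (adjusted p = 0.105).

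The usual markers of dividing cells did not pass, apart from Mki67 when the prior variance followed intensity (limma adjusted p = 0.0391). Mki67, a nuclear protein of cycling cells, had 14.64, 14.43 and 14.16 with cyclopamine and 14.97, 15.19 and 14.96 in vehicle (-0.63 ± 0.18, limma adjusted p = 0.0752). Top2a, the topoisomerase that untangles chromosomes, had 12.31, 11.97 and 11.74 with cyclopamine and 12.42, 12.77 and 12.55 in vehicle (-0.57 ± 0.19, limma adjusted p = 0.118). In both genes every cyclopamine array lay below every vehicle array. Cdk1, the kinase that triggers mitosis, had 11.25, 11.23 and 10.75 with cyclopamine and 11.11, 11.59 and 11.50 in vehicle, so its groups overlapped (-0.33 ± 0.22, limma adjusted p = 0.461).

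Of the spindle and checkpoint genes, the kinase Bub1 (-0.62 ± 0.17, limma adjusted p = 0.0646) and the kinesin Kif20a (-0.57 ± 0.16, limma adjusted p = 0.0667) came nearest to the threshold. Cdc20, the activator of the anaphase-promoting complex, differed by -0.59 ± 0.23, the centromere histone Cenpa by -0.52 ± 0.22 and the spindle kinesin Kif11 by -0.47 ± 0.16, with adjusted p from 0.141 to 0.240. The smallest differences of the list were those of the checkpoint kinase Bub1b (-0.33), the kinase Aurka (-0.30), cyclin B2 (Ccnb2, -0.21) and the kinase Plk1 (-0.15), and in these 4 genes the groups overlapped.

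**Figure D2:**
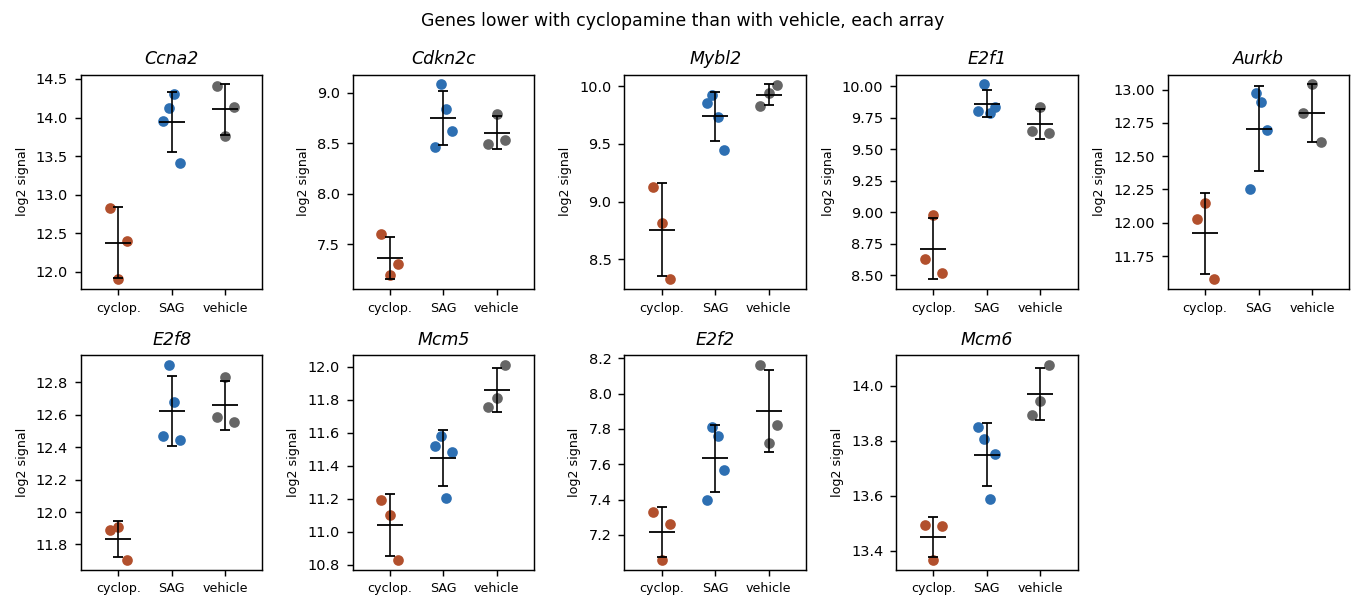
Log2 signal of the 9 genes that fell with cyclopamine, on each array of the cyclopamine, SAG and vehicle groups; bars are the mean and SD. In all 9 panels the cyclopamine points lie below the vehicle points, for Ccna2 at 11.91 to 12.83 against 13.76 to 14.41.

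The promoters of 5 members are shown because they carry the letters that the background ties to the G1/S and the G2/M programmes. Each is the 250 bases before the RefSeq transcription start (GRCm38.p6), 5′ to 3′ on the gene's own strand. Capitals mark E2F words (TTTCCCGC, TTTCGCGC, TTTGCCGC or TTTGGCGC) and CHR words (TTTGAA), each also in its reverse complement. The 5 are Mcm6 (chr1:128359706-128359955, minus strand) and Mcm5 (chr8:75109259-75109508, plus strand), which fell and hold E2F words, E2f8 (chr7:48881597-48881846, minus strand), which fell and holds a CHR word, and Cdk1 (chr10:69352913-69353162, minus strand) and Top2a (chr11:99024190-99024439, minus strand), which did not pass the test and hold CHR words.
Mcm6: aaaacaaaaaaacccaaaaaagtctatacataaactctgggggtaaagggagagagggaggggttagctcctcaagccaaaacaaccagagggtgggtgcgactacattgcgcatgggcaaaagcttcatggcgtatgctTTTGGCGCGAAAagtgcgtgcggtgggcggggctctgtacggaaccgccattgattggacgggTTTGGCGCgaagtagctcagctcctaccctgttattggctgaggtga
Mcm5: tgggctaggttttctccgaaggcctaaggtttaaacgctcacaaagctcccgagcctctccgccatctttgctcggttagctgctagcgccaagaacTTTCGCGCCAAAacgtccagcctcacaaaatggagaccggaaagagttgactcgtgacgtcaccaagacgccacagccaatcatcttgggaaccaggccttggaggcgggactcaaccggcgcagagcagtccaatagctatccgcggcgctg
E2f8: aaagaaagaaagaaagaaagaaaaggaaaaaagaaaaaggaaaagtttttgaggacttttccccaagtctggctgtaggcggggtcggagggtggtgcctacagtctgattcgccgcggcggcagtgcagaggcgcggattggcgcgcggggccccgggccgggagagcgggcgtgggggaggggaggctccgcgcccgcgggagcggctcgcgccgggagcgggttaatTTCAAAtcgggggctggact
Cdk1: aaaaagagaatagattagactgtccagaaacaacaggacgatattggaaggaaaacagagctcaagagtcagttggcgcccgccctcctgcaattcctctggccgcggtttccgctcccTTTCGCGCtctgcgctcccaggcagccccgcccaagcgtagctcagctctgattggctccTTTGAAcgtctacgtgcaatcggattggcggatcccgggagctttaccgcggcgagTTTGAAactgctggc
Top2a: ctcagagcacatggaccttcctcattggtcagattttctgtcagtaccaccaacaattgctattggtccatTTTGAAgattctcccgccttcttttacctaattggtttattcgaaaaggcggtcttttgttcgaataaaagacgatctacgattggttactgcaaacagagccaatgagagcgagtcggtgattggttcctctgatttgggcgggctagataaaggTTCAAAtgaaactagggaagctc

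Positions are those of a word's first base, with -1 the last base before the start. In Mcm6 a pair of E2F words on opposite strands overlap at -110 and -106 and another stands at -47. Mcm5 has an overlapping pair at -153 and -149. E2f8 has a CHR word at -20, Top2a at -179 and -23, and Cdk1 at -71 and -15 beside an E2F word at -131.

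RefSeq promoter entries matched 34 of the 41 measured members. In windows of 300 bases, 250 before the start and 50 after it, an E2F word was found in 7 of 15 G1/S and replication genes and 1 of 12 G2/M genes, against 2.61% of all 27025 genes with an entry. The CHR word was found in 10 of 12 G2/M genes and 3 of 15 G1/S and replication genes, against 20.2% of all genes. CCAAT, searched on both strands, was found in 11 of 12 G2/M genes and 9 of 15 G1/S and replication genes, against 41.1% of all genes. Among the members that fell with cyclopamine and have an entry, 3 of 7 held an E2F word and 2 of 7 the CHR word, and among those that did not pass, 6 of 27 and 12 of 27 did. The word GACCACCCA, known to be bound by GLI factors, was in 0 of the 34 windows and in 0.289% of all genes. A gene with several starts was counted when any window held the word, and a match is a description of letters, not of binding. E2f2, which fell, was counted for the E2F and the CHR word from different windows. The starts were not checked for lying inside a gene. A gene without a word in its window, such as E2f1, may hold one elsewhere.

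None of the 4 measured D cyclins and partner kinases passed the test with cyclopamine. Ccnd2 (cyclin D2) had 14.70, 13.84 and 14.58 with cyclopamine and 14.77, 15.00 and 14.81 in vehicle, a difference of -0.48 ± 0.21 (limma adjusted p = 0.236). Cyclopamine replicate 2 stood lowest there, and the groups were separate by less than 0.1. Ccnd3 (cyclin D3) had 16.17, 16.20 and 16.06 with cyclopamine and 16.40, 16.38 and 16.58 in vehicle (-0.31 ± 0.12, limma adjusted p = 0.204), also without overlap. Cdk6 had 12.79, 12.76 and 12.63 with cyclopamine and 12.97, 13.26 and 13.02 in vehicle (-0.36 ± 0.17, limma adjusted p = 0.295). Cdk4, with 16.24, 16.45 and 16.47 with cyclopamine and 16.42, 16.47 and 16.39 in vehicle, overlapped with vehicle and had a 95% interval of -0.32 to 0.24.

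Of the 3 CDK inhibitors, 1 fell and the others did not pass the test. Cdkn2c, the p18 inhibitor of Cdk4 and Cdk6, fell: it had 7.60, 7.20 and 7.30 with cyclopamine and 8.49, 8.79 and 8.53 in vehicle, a 2.36-fold lower signal (log2 difference -1.24 ± 0.18, limma adjusted p = 0.00473). Every cyclopamine array lay below every other array, and the call held in each of the 10 omissions. Cdkn1b, the p27 inhibitor of Cdk2, had 11.31, 10.81 and 10.39 with cyclopamine and 11.46, 11.64 and 11.38 in vehicle (-0.66 ± 0.22, limma adjusted p = 0.122). Cdkn1a, the p21 inhibitor and a p53 target, was the member with a positive difference, at 13.95, 14.18 and 14.88 with cyclopamine and 13.73, 13.97 and 13.62 in vehicle (0.56 ± 0.23, limma adjusted p = 0.221). Cyclopamine replicate 3 was the highest array for Cdkn1a, and its cyclopamine and vehicle groups overlapped. The median of the 3 differences was -0.66, and it was -0.43 without cyclopamine replicate 3.

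Mycn, a transcription factor and known hedgehog target in neural progenitors, had the largest standard error of the members. It had 8.69, 7.01 and 8.61 with cyclopamine and 8.02, 8.88 and 8.23 in vehicle (-0.27 ± 0.40, limma adjusted p = 0.784). Cyclopamine replicate 2 alone lay below all vehicle arrays, and the other cyclopamine arrays lay within the vehicle range.

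**Figure D3:**
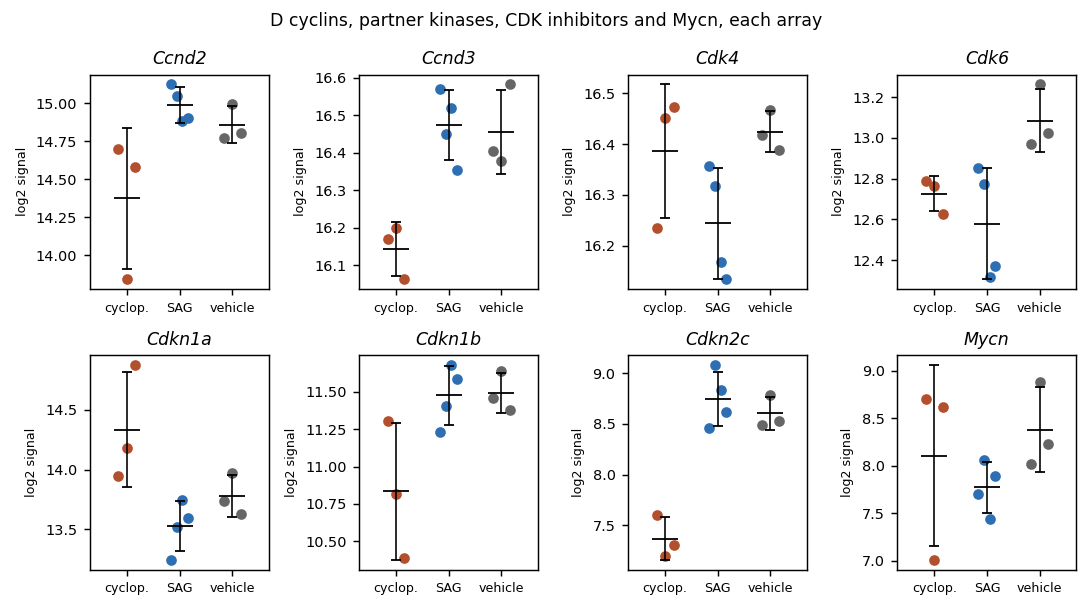
Log2 signal of the D cyclins, their partner kinases, the CDK inhibitors and Mycn on each array of the cyclopamine, SAG and vehicle groups; bars are the mean and SD, and each panel has its own scale. Cdkn2c lies at 7.20 to 7.60 with cyclopamine and 8.49 to 8.79 in vehicle, whereas Cdkn1a lies highest with cyclopamine, at 13.95 to 14.88.

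With SAG, 0 of the 41 genes passed the test against vehicle, where 0.730% of all probe sets did (limma, adjusted over all probe sets). An unadjusted p under 0.05 was found for 2389 of all 22206 probe sets and for 4 members, a share no larger than the background. Those 4 were Cdc6, Mcm5, Tyms and Cdk6, and the smallest adjusted p of any member was 0.245. The same vehicle arrays served for both compounds, so the differences share their control. Differences were negative for 26 members and positive for 15, with a median of -0.09. The 95% intervals of the 41 differences ran from -1.44 (the lower bound for Mycn) to 0.57 (the upper bound for Top2a).

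In 7 of the 41 members every SAG array lay below every vehicle array, and in 0 above. Of all probe sets, 12.9% were separate in either direction. The share of all probe sets that lay below vehicle is not given here, so the 7 are not read as more or fewer than the background. None of the 7 passed the test against vehicle. The 7 were Cdc6, Mcm5, Mcm6, Pcna and Tyms of the G1/S and replication list and Cdk4 and Cdk6. Mcm5 had 11.52, 11.58, 11.20 and 11.48 with SAG, between the cyclopamine and the vehicle values (-0.41 ± 0.14 against vehicle, limma adjusted p = 0.302). Mcm6 had 13.85, 13.80, 13.59 and 13.75 with SAG, also between them (-0.22 ± 0.12, limma adjusted p = 0.542). Pcna had 15.70, 15.86, 15.87 and 15.81 with SAG, around the cyclopamine values (-0.14 ± 0.11, limma adjusted p = 0.685). Cdk6 had 12.85, 12.77, 12.32 and 12.37 with SAG, replicates 3 and 4 below all cyclopamine arrays (-0.50 ± 0.16, limma adjusted p = 0.245). Cdk4 had 16.36, 16.32, 16.17 and 16.13 with SAG (-0.18 ± 0.12, limma adjusted p = 0.648).

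The list medians with SAG were -0.17 for the 18 G1/S and replication genes, 13 of them negative, and -0.01 for the 15 G2/M genes, 8 of them negative. Averaged over the G1/S and replication list the SAG arrays stood at -0.17, 0.04, -0.26 and -0.19 relative to the vehicle mean, and over the G2/M list at -0.28, 0.17, 0.01 and 0.05. SAG replicate 1 was the lowest SAG array for 13 of the 15 G2/M genes and SAG replicate 2 the highest for 10. Mki67 had 14.76, 15.35, 14.94 and 15.06 with SAG, on both sides of vehicle, and a 95% interval of -0.39 to 0.36 for its difference. Top2a had 12.46, 12.93, 12.73 and 12.93 with SAG, and Cdk1 had 10.79, 11.29, 11.39 and 11.44. Of the genes that cyclopamine lowered, Ccna2 had 13.95, 14.12, 14.31 and 13.41 with SAG, overlapping with vehicle, with a 95% interval of -0.74 to 0.42.

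Among the other regulators of G1, Ccnd2 had 15.12, 15.05, 14.88 and 14.90 with SAG (0.13 ± 0.19 against vehicle) and Ccnd3 had 16.57, 16.45, 16.52 and 16.35 (0.02 ± 0.12), both overlapping with vehicle. Cdkn2c had 8.46, 9.08, 8.83 and 8.62 with SAG, its lowest array just below vehicle and its highest above. Cdkn1a had 13.24, 13.52, 13.74 and 13.59, and Cdkn1b had 11.23, 11.41, 11.68 and 11.59. Mycn had 7.70, 8.06, 7.44 and 7.89 with SAG, 3 of the 4 arrays below all vehicle arrays (-0.60 ± 0.38, limma adjusted p = 0.623). None of these differences passed the test.

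**Figure D4:**
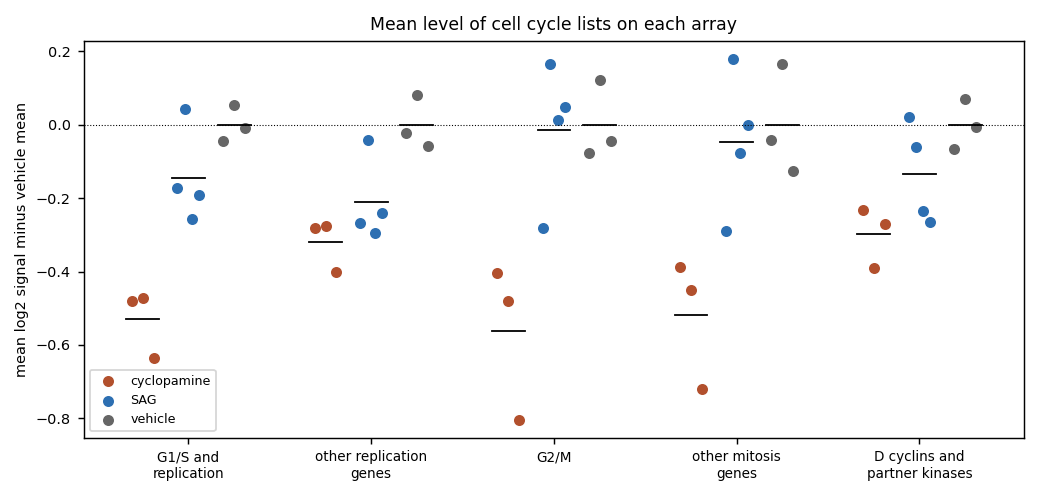
Mean log2 signal of each list on each array, minus the mean of the vehicle arrays (vertical axis), for cyclopamine, SAG and vehicle; bars are group means. Cyclopamine arrays lie at -0.64 to -0.47 in the G1/S and replication list and -0.80 to -0.40 in the G2/M list, and SAG arrays at -0.26 to 0.04 and -0.28 to 0.17.

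Set against cyclopamine, 12 of the 41 genes were higher with SAG, where 5.42% of all probe sets were, and 1 was lower, where 5.92% were (limma, adjusted over all probe sets). The median difference was 0.38, and in 18 members every SAG array lay above every cyclopamine array, as did 10.7% of all probe sets. The 12 were Ccne2, E2f1, E2f8 and Mybl2 of the G1/S and replication list, Ccna2, Aurkb, Birc5, Bub1, Kif20a, Top2a and Mki67 of the G2/M list, and Cdkn2c. The list medians were 0.28 and 0.50 for G1/S and replication and for G2/M. Median and count both rest on the same cyclopamine arrays as above, so they are not a second measurement of the cyclopamine change. The count of 13 calls was 6 without SAG replicate 2, 8 without SAG replicate 4 and 5 without cyclopamine replicate 3. It was 8 in a fit of the SAG and cyclopamine arrays alone. Without cyclopamine replicate 2 it was again 13, but the genes differed. Ccne2, Bub1 and Mki67 lost the call there, while Cdk2 and Aurka gained it as higher with SAG. Mycn gained it as lower with SAG (log2 difference -0.88, limma adjusted p = 0.0413).

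E2f1 had 9.81, 10.02, 9.79 and 9.84 with SAG, all at least 0.8 above the highest cyclopamine array (1.15 ± 0.14, limma adjusted p = 0.000429). Cdkn2c was 2.60-fold higher with SAG than with cyclopamine (log2 difference 1.38 ± 0.17, limma adjusted p = 0.000493) and Ccna2 2.97-fold (1.57 ± 0.26, limma adjusted p = 0.00307). Mybl2, at 9.86, 9.92, 9.73 and 9.45 with SAG, differed by 0.98 ± 0.19 (limma adjusted p = 0.00681), and E2f8, at 12.47, 12.91, 12.68 and 12.44, by 0.79 ± 0.15 (limma adjusted p = 0.00552). These 5 stayed past the threshold in each of the 10 omissions.

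Of the other G2/M genes, Kif20a differed by 0.67 ± 0.15 (limma adjusted p = 0.0127, or 0.0531 without cyclopamine replicate 3) and Top2a by 0.75 ± 0.17 (limma adjusted p = 0.0175, or 0.0520 without SAG replicate 2 and 0.0740 without cyclopamine replicate 3). Aurkb, at 12.26, 12.97, 12.90 and 12.70 with SAG, differed by 0.79 ± 0.21 (limma adjusted p = 0.0310) and lost the call without SAG replicate 2, 3 or 4 or cyclopamine replicate 1 or 3 (0.0623 to 0.121). Mki67 (0.62 ± 0.17, limma adjusted p = 0.0383) lost it in 7 of 10 omissions (0.0538 to 0.142) and kept it without vehicle replicate 2, SAG replicate 1 or cyclopamine replicate 1. Birc5 (0.56 ± 0.16, limma adjusted p = 0.0450) kept the call only without cyclopamine replicate 1 or 2 and lost it in the 8 other omissions (0.0524 to 0.144). Bub1 (0.56 ± 0.16, limma adjusted p = 0.0446) kept it only without SAG replicate 1 or cyclopamine replicate 1 and lost it in the 8 others (0.0581 to 0.156), and its groups overlapped.

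Ccne2 differed by 0.81 ± 0.19 (limma adjusted p = 0.0178) and lost the call without SAG replicate 2, cyclopamine replicate 2 or cyclopamine replicate 3 (0.0501 to 0.0594). E2f2, at 7.40, 7.81, 7.76 and 7.57 with SAG, lay above all cyclopamine arrays without passing the test (0.42 ± 0.15, limma adjusted p = 0.122). Cdkn1a was the 1 member lower with SAG, by 0.81 ± 0.22 on the log2 scale, with every SAG array below every cyclopamine array (limma adjusted p = 0.0339). That call was lost without vehicle replicate 1, SAG replicate 1, 2 or 4, or cyclopamine replicate 3 (0.0515 to 0.101). Ccnd2 (0.61 ± 0.19, limma adjusted p = 0.0691) and Cdkn1b (0.64 ± 0.20, limma adjusted p = 0.0712) came near the threshold. The Mcm genes and the other replication members did not pass, with differences from 0.03 for Pcna to 0.56 for Rrm2.

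Other genes of the same programmes, listed from textbook knowledge, were read from the same fit. Of 47 further mitosis genes, 6 fell with cyclopamine (12.8%, against 2.95% of all probe sets) and 0 rose, with a median of -0.53. They included Melk, a kinase of dividing progenitors, at 9.48, 9.52 and 9.39 with cyclopamine and 10.57, 10.62 and 10.47 in vehicle (-1.09 ± 0.19, limma adjusted p = 0.00918), the spindle proteins Nusap1 (-0.97 ± 0.17, limma adjusted p = 0.00989) and Ckap2l (-0.98 ± 0.17, limma adjusted p = 0.00989), and the spindle assembly factor Tpx2 (-0.81 ± 0.15, limma adjusted p = 0.0130, or 0.0580 without vehicle replicate 1). With SAG, 0 of the 47 passed against vehicle (limma, median -0.05). An unadjusted p under 0.05 was found for 1 of the 47 and for 2389 of all 22206 probe sets. Set against cyclopamine, 12 of the 47 were higher with SAG (25.5%, against 5.42% of all probe sets), among them Ckap2l (1.00 ± 0.16, limma adjusted p = 0.00249). The count of 12 was 4 without SAG replicate 2 and 3 without cyclopamine replicate 3, and the count of 6 was at least 4 in every omission. Without cyclopamine replicate 2 the counts were 9 for cyclopamine against vehicle and 12 for SAG against cyclopamine.

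Of 40 further replication genes, 3 fell with cyclopamine (7.5%, against 2.95% of all probe sets) and 0 rose. The 3 were the licensing inhibitor Gmnn (-0.72 ± 0.14, limma adjusted p = 0.0180), the helicase component Cdc45 (-0.84 ± 0.20, limma adjusted p = 0.0418) and the repair gene Brca1 (-0.67 ± 0.17, limma adjusted p = 0.0463). The 3 calls depend on single arrays: the count was 0 without vehicle replicate 1, vehicle replicate 2, cyclopamine replicate 1 or cyclopamine replicate 3, and 1 without vehicle replicate 3 or SAG replicate 3. The median was -0.35, with 35 of 40 negative. With SAG, 0 of the 40 passed against vehicle (limma), the median was -0.23 and 36 of 40 were negative. An unadjusted p under 0.05 was found for 8 of the 40 and for 2389 of all 22206 probe sets. Set against cyclopamine, 3 of the 40 (7.5%) passed, a share no larger than in the background, where 5.42% of all probe sets were higher with SAG and 5.92% lower. The genes that were higher numbered 2, and the 1 lower was the histone chaperone subunit Chaf1b, at 10.81, 11.20, 10.76 and 10.96 with SAG and 11.90, 11.33 and 11.77 with cyclopamine. Its difference of -0.74 ± 0.16 (limma adjusted p = 0.0147) did not pass without cyclopamine replicate 1 or 3 (0.0571 and 0.0646), and the count of 3 was 1 without SAG replicate 2 or cyclopamine replicate 1 and 0 without cyclopamine replicate 3. Without cyclopamine replicate 2 the count was 3 in each comparison with cyclopamine.

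Of 30 further regulators of G1 and CDK inhibitors, 1 rose and 4 fell with cyclopamine, 16.7% together. Over all probe sets 2.17% rose, which 1 of 30 is near, and 2.95% fell. Tfdp2, which pairs with E2F factors on DNA, was the one that rose, with 11.91, 11.93 and 11.76 with cyclopamine and 11.10, 11.18 and 10.98 in vehicle (0.78 ± 0.15, limma adjusted p = 0.0169, and up to 0.0632 without vehicle replicate 1, vehicle replicate 3 or cyclopamine replicate 1). Those that fell were E2f7, the partner of E2f8, Skp2, which marks p27 for destruction (-0.98 ± 0.21, limma adjusted p = 0.0269), Cdkn2d, a further inhibitor of Cdk4 and Cdk6 (-0.88 ± 0.19, limma adjusted p = 0.0270), and Mycl of the Myc family (-0.96 ± 0.21, limma adjusted p = 0.0285). The count of 5 was 1 without vehicle replicate 1, vehicle replicate 2, cyclopamine replicate 1 or cyclopamine replicate 3, and 3 without vehicle replicate 3. With SAG, 0 of the 30 passed against vehicle (limma, 5 at an unadjusted p under 0.05, as were 2389 of all 22206 probe sets), or 1 without SAG replicate 1. Set against cyclopamine, 4 were higher with SAG, where 5.42% of all probe sets were. The 1 lower, where 5.92% of all probe sets were, was Tfdp2 (-0.99 ± 0.14, limma adjusted p = 0.00120). Tfdp2 kept that call in every omission, while the count of 5 was 1 without SAG replicate 2 or cyclopamine replicate 3, 2 without SAG replicate 3, and 3 without SAG replicate 4 or cyclopamine replicate 1. Without cyclopamine replicate 2 the counts were 4 for cyclopamine against vehicle and 5 for SAG against cyclopamine.

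The levels of cell type marker lists differed between the groups that the cell cycle genes were compared in. In whole explants, a change in cell makeup and a change in marker RNA per cell cannot be told apart. Duct epithelium markers averaged 1.05 to 1.82 above the vehicle mean on the cyclopamine arrays, and 6 of 11 rose, where 2.17% of all probe sets did. On the SAG arrays they averaged -1.51 to -0.82, and on the vehicle arrays -0.38 to 0.51. With SAG, 2 of the 11 were lower by test, as were 62 of all 22206 probe sets. Mesenchyme markers averaged -0.89 to -0.54 with cyclopamine, 0.08 to 0.22 with SAG and -0.05 to 0.04 in vehicle, and 4 of 9 fell with cyclopamine. Smooth muscle markers averaged -3.25 to -2.50 with cyclopamine, -0.67 to -0.43 with SAG and -0.33 to 0.20 in vehicle, and 6 of 8 fell with cyclopamine. Endothelium markers averaged -2.06 to -0.27 with cyclopamine, 0.15 to 0.58 with SAG and -0.56 to 0.50 in vehicle, and 1 of 6 fell with cyclopamine. Over all probe sets, 2.95% fell with cyclopamine.

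Macrophage markers (7 of 8 measured) averaged -0.70 to 1.03 with cyclopamine, -0.30 to 0.41 with SAG and -0.13 to 0.25 in vehicle, with 0 calls in either comparison with vehicle. Blood cell markers (3 of 5) and neuron and glia markers (4 of 6) had 0 calls as well. The B cell marker Cd79a read 4.04 to 4.57 on the 10 arrays and the T cell marker Cd3e 4.74 to 5.34, where the lowest signal of any probe set was 2.95 to 3.00 on each array and the lower quartile of all probe set means was 5.19. The part of these shifts in the differences of the cell cycle genes was not tested.

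**Figure D5:**
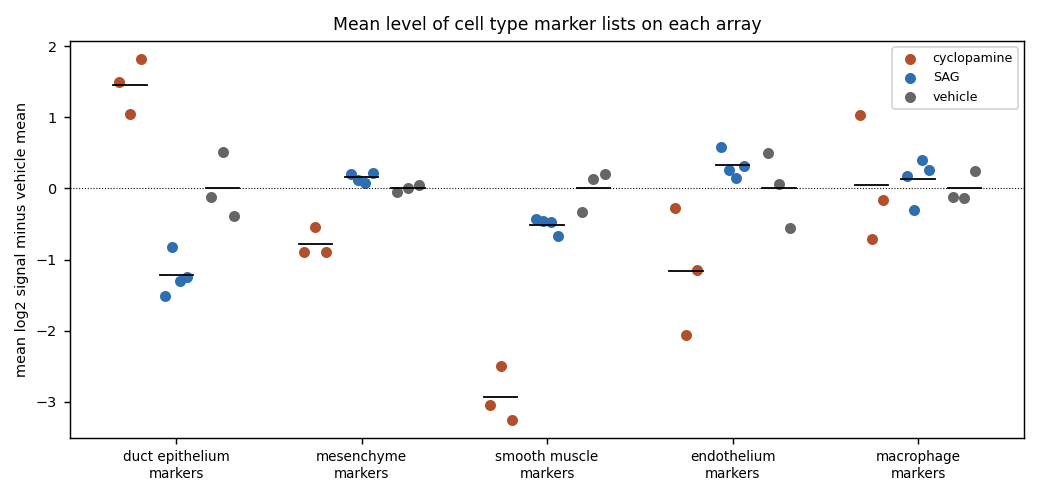
Mean log2 signal of 5 cell type marker lists on each array, minus the mean of the vehicle arrays (vertical axis), for cyclopamine, SAG and vehicle; bars are group means. Duct epithelium markers lie at 1.05 to 1.82 with cyclopamine and -1.51 to -0.82 with SAG, and smooth muscle markers at -3.25 to -2.50 with cyclopamine.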

How the data were processed

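Each of 10 Affymetrix arrays holds RNA of cultured Wolffian ducts, 100 ng labelled with the GeneChip WT Plus kit per the labels. Deposited with the series are log2 signals of 22206 probe sets. Base 2 was inferred from their range. The sources used here do not say how the authors summarized, normalized and annotated the arrays. Differences between signals near the lower end are compressed, and precision is limited by how few arrays there are.

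In limma 3.58.1 (R 4.3.3), a mean per group was fitted to all arrays (7 residual degrees of freedom), with eBayes, two-sided tests and Benjamini-Hochberg adjustment over all probe sets at 0.05. Errors beside differences are moderated standard errors. The p-values set each group difference against the spread between arrays of the same group. Whether that spread covers separate litters or pools is not stated. The fit was tested on simulated data. The members and lists were chosen with earlier results of these data known, so lists are described by counts and medians. Every member may be named. Array values are given for members past the threshold against vehicle, G1 regulators and common proliferation markers. Genes of the other cell cycle lists were named mainly by smallest p, and a few, such as Mdm2, were named regardless of p. Alternatives were quantile normalization, median centring, a filter on dim probe sets, array weights, a prior variance that follows intensity, replicate number as a block, fits of 2 groups, averaged probe sets and leaving out each array. A fit without cyclopamine replicate 2 and SAG replicate 1 was added after seeing the data. Promoters are from RefSeq (GRCm38.p6).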

Additional observations from a re-analysis of the deposited data

Results flagged for a closer look

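In the SAG group of 4 arrays, 41 genes and 5 list means were looked at for an array far from the others. Birc5 stood out on SAG replicate 3, at a log2 signal of 10.636 where the other SAG arrays lay between 10.87 and 10.89. The gap to the nearest array was 0.937 of the group's range, past Dixon's 95% critical value for 4 samples. Chance alone marks about 1 in 20 groups in this way.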

How the results depend on the processing

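Over 19 alternatives, 2208 of 2337 member results kept their side of the threshold and 99 lost and 30 gained a call, with 0 calls reversed; 81 differences that passed in neither fit changed sign, 66 of them in SAG minus vehicle. For SAG minus vehicle 0 members passed under every alternative. For cyclopamine minus vehicle, 5 members passed with the replicate number as a block and 5 to 10 in fits without 1 array. For SAG minus cyclopamine, 6 passed with the block, 8 in a fit of those 2 groups alone and 5 to 14 without 1 array. Same-numbered arrays had correlations of -0.19 to 0.24 in their deviations from the group means, so the numbers were not taken to pair them, and with the block 653, 32 and 1613 probe sets passed in the 3 comparisons, against 1136, 162 and 2518. The list median of CDK inhibitors ran from -0.89 to -0.43 for cyclopamine minus vehicle and from 0.42 to 0.88 for SAG minus cyclopamine without 1 array.

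Further replication genes called for cyclopamine minus vehicle numbered 1 with arrays centred on their medians, 1 in a fit of 2 groups and 0 to 3 without 1 array, and for SAG minus cyclopamine 1 with the block and 0 to 3 without 1 array. Further mitosis genes called for cyclopamine minus vehicle numbered 4 to 9 without 1 array, and for SAG minus cyclopamine 6 with the block and 3 to 18 without 1 array. Further G1 regulators numbered 2 for cyclopamine minus vehicle in a fit of 2 groups, 1 for SAG minus vehicle with array weights, and, without 1 array, 1 to 5 for cyclopamine minus vehicle, 0 to 1 for SAG minus vehicle and 1 to 6 for SAG minus cyclopamine. The p53 targets numbered 1 to 3, 0 to 1 and 2 to 5 in those comparisons without 1 array. Without both cyclopamine replicate 2 and SAG replicate 1, an alternative chosen after seeing the data, mitosis genes numbered 11 for cyclopamine minus vehicle and 19 for SAG minus cyclopamine, G1 regulators 1 for SAG minus vehicle and p53 targets 3 for cyclopamine minus vehicle, while the G2/M median for SAG minus cyclopamine was 0.71 (0.37 to 0.63 without 1 array). The causes were not tested. Small numbers of arrays limit what these comparisons can show.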

Other observations

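Of 17 measured targets of p53, the tumour suppressor that halts the cycle through Cdkn1a, 1 fell with cyclopamine and 0 rose, with a median of -0.04. That 1 is 5.88% of the list, near the background, where 2.95% of all probe sets fell and 2.17% rose. The gene that fell was Plk2, a stress-induced kinase, at 11.69, 11.07 and 11.38 with cyclopamine and 12.77, 12.55 and 12.44 in vehicle (-1.21 ± 0.21, limma adjusted p = 0.0101), and it kept the call in each of the 10 fits without 1 array. Without cyclopamine replicate 2 the count was 3. Mdm2, the p53 inhibitor and target, differed by -0.13 ± 0.23 (limma adjusted p = 0.815).

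With SAG, 0 of the 17 passed against vehicle (limma, 2 at an unadjusted p under 0.05, as were 2389 of all 22206 probe sets), or 1 without vehicle replicate 3. The differences were positive for 12 of 17, with a median of 0.22, and the mean over the list stood at 0.15 to 0.30 relative to the vehicle mean on the SAG arrays, against -0.10 to 0.13 on the vehicle arrays. Set against cyclopamine, Plk2 was 3.05-fold and the receptor Eda2r 5.57-fold higher with SAG (log2 differences 1.61 ± 0.20 and 2.48 ± 0.41, limma adjusted p = 0.000467 and 0.00278). Eda2r read 9.92, 10.31, 9.85 and 9.64 with SAG, above all 3 cyclopamine arrays at 6.74, 8.53 and 7.08. Trp53inp1, which promotes p53 activity, was lower with SAG (-0.73 ± 0.17, limma adjusted p = 0.0175) but not without cyclopamine replicate 1 or 3 (0.0587 and 0.0659). The 3 calls, Plk2, Eda2r and Trp53inp1, were 17.6% of the list, where 5.42% of all probe sets were higher with SAG and 5.92% lower. The count of 3 was 5 without vehicle replicate 3 and 4 without cyclopamine replicate 2.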
